A study of Mus musculus with 3 samples.

Results

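The circadian clock genes described here are 10 genes taken by name from the 22378 genes listed in each library. They are the activators Arntl and Clock, the repressors Per1, Per2, Per3, Cry1 and Cry2, and the output regulators Dbp, Tef and Nfil3. All 10 were found, each with a value and status OK in all 3 libraries, and each stood at 1 FPKM or more in every library. FPKM counts fragments relative to gene model length and to the mapped fragments of the library, so levels of different genes can be set side by side.

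RNA was sequenced from mammary cells or whole mammary gland of FVB mice in 3 pooled libraries, 1 per group. LCC (lung-colonizing cells) were dissociated mammary cells injected into a vein and sorted from the lungs of FVB recipients 1 day later. They came from mice carrying green fluorescent protein or were stained with the dye DDAO, and those marks guided the sort. This library pooled 15 experiments, 42 lungs and 455880 cells, with 8 donor and 4 recipient mice in each experiment and 2 injections of 2500000 cells. E-Int29-Hi, 3 samples combined, were mammary cells gated on CD29 (high) and EpCAM (intermediate), a population that the labels call enriched in colonizing cells. MG, also 3 samples combined, was whole mammary gland without dissociation. The labels used here give no hour of collection for any group. Differences of hour between the pools therefore cannot be told apart from differences between the populations.

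The mammalian clock is a feedback loop of transcription. ARNTL (also called BMAL1) pairs with CLOCK and binds E-box sequences, which switches on the Per and Cry genes. The PER and CRY proteins then enter the nucleus and restrain that pair. The same pair drives the nuclear receptors REV-ERB, which repress Arntl through ROR elements, and Dbp, whose protein activates genes through D-box sequences that NFIL3 represses. Most tissues run this loop, the mammary gland included, and several of its genes also respond directly to glucocorticoids, cyclic AMP and stress.

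The promoter sequences below show matches to elements of the kinds named above. Whether any match is bound in these cells was not tested, and the levels described afterwards are of RNA. RefSeq promoter windows (build GRCm38.p6, 250 bases before to 50 after a transcript start) were at hand for 9 of the 10 members, 14 windows in all, and Per2 was not matched. Both strands were searched for the E-box CACGTG, its variant CACGTT, the D-boxes TTATGTAA and TTACGTAA, the cyclic AMP element TGACGTCA and the ROR/REV-ERB element. No matches of different motifs overlapped in the members. The 250 bases before the start are shown for Per1 (chr11:69098699-69098948, plus strand), Cry1 (chr10:85185055-85185304, minus strand) and Tef (chr15:81802423-81802672, plus strand), which hold an E-box, and Per3 (chr4:151044666-151044915, minus strand), which holds D-boxes. For Arntl the 30 bases around its ROR/REV-ERB element are shown (chr7:113207528-113207557, plus strand). Capitals mark the matches, and each sequence reads 5′ to 3′ along the gene.
Per1: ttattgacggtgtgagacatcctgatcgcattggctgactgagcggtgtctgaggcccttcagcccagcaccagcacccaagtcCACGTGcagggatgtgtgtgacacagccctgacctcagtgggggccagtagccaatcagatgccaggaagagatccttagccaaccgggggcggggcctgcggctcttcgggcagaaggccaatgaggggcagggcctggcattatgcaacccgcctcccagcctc
Cry1: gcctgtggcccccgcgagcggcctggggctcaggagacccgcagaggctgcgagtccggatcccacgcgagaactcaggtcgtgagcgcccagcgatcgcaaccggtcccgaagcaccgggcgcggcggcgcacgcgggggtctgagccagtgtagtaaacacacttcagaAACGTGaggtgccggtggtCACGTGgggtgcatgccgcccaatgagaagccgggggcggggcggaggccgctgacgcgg
Tef: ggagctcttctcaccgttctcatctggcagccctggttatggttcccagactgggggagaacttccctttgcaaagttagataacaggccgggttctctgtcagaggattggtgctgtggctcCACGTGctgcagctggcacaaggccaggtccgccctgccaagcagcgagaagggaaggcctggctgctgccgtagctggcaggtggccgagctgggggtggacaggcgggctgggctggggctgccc
Per3: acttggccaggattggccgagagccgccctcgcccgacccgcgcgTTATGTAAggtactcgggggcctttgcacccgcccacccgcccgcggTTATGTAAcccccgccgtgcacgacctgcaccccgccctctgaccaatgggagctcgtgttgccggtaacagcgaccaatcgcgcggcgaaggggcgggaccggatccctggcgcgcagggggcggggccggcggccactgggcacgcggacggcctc
Arntl: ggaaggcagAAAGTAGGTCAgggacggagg

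An E-box stood in a window of 3 of the 9 matched members, Per1, Cry1 and Tef, and in 7.15% of all 32851 windows in the table. The Per1 match began 166 bases before the first of its 2 starts, and the second Per1 window held none. The Cry1 match began 60 bases before the start. Tef held a match 127 bases before its first start and another 138 bases before its second. The E-box variant stood in Cry1 and Cry2, 2 of 9 members, and in 4.68% of all windows. The D-box TTATGTAA was found in Per3 alone among the members, at 205 and 158 bases before the start, and in 0.938% of all windows. The ROR/REV-ERB element was found in Arntl alone, 27 bases after the second start, and in 0.384% of all windows. TTACGTAA (0.119% of all windows) and TGACGTCA (1.79%) were found in none of the 9. Of the 35 other clock genes described further on, 27 were matched, and 4 of them (Bhlhe41, Ciart, Sirt1 and Tspan4) held an E-box. The members and other clock genes are counted by gene, with a match in any of their 14 and 35 windows, whereas the shares are over single windows. These measures are unlike, and a share by gene over all 27025 genes was not computed. A match describes letters in a short window, and these genes are also known to be controlled from sites outside it.

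**Figure D1:**
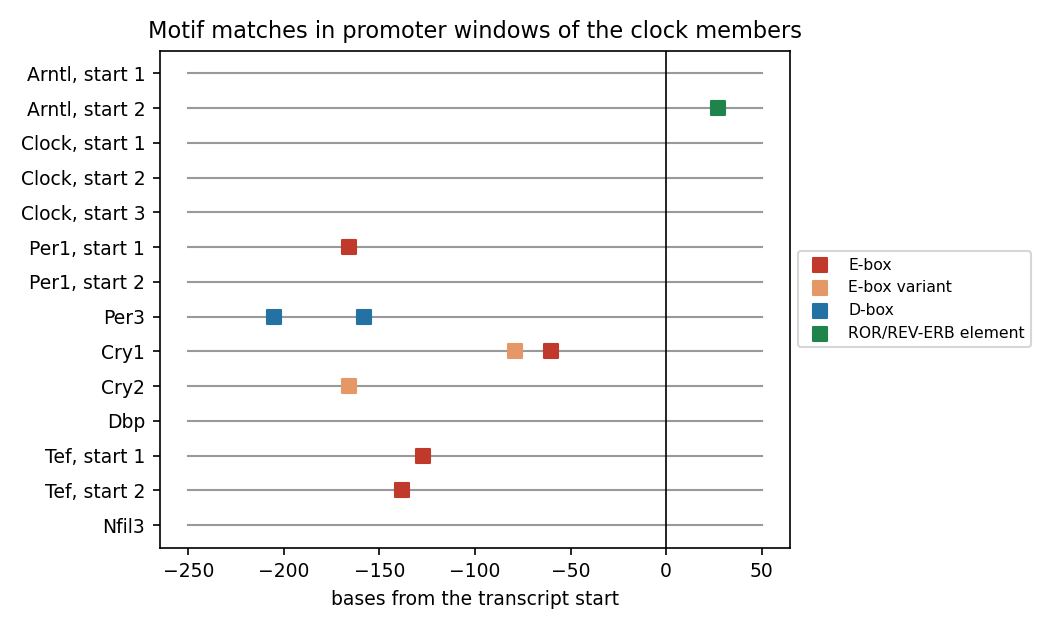
Positions of motif matches in the promoter windows of the clock members, in bases from the transcript start (x axis), with 1 line per window (y axis). Each square is the first base of a match. E-boxes lie before the first start of Per1, the start of Cry1 and both starts of Tef. A pair of D-boxes lies before Per3, and the ROR/REV-ERB element after the second start of Arntl.

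With 1 pooled library per group there was no replicate error, so no test was run and every value describes these pools. Differences are log2((FPKM + 1)/(FPKM + 1)), a scale on which low genes appear to change less than they did, and a gene was counted where the higher library reached 1 FPKM. Because these are bulk libraries, fewer cells of a type and less RNA per cell cannot be told apart. The median over all counted genes was 0.26 for LCC against E-Int29-Hi, 0.01 for LCC against MG and -0.23 for E-Int29-Hi against MG. Differences relative to that median are given for the members that results turn on.

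The cell types differed strongly between the pools. The summed level of 3 luminal keratins was 3870 FPKM in LCC, 269 FPKM in E-Int29-Hi and 1931 FPKM in MG, and that of 4 basal markers was 393, 4754 and 329.5 FPKM. The 4 fibroblast markers summed to 934, 107 and 2099.8 FPKM, and the 3 endothelial markers to 73.1, 62.8 and 316 FPKM. The 4 macrophage markers summed to 296, 84.4 and 53.6 FPKM. All 4 lung epithelium markers stood at 1 FPKM or more in LCC (617 FPKM summed) and none in E-Int29-Hi (1.21) or MG (0.5395), with Sftpa1 listed at 0 in E-Int29-Hi. The 4 lymphocyte markers (2.87, 1.10 and 5.41 FPKM summed) and 4 adipocyte markers (0.516, 0.584 and 3.98) were low, with Plin1 and Lep listed at 0 in LCC. Sums are led by their highest genes, and some genes went against them. In LCC against MG, 1 of 3 luminal keratins (Krt19, 244 and 488 FPKM) and 2 of 4 basal markers (Acta2 and Trp63) were lower. In E-Int29-Hi against MG, 2 of 4 macrophage markers (Csf1r and Adgre1) were lower. In LCC against E-Int29-Hi, 1 of 3 endothelial markers (Kdr) was lower. Scgb1a1 gave 572 of the 617 FPKM of lung epithelium markers. The part of these cell types in the clock gene differences was not tested.

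No clock member was highest in LCC, and 7 of the 10 were lowest there. Clock, Per2, Per3, Cry1, Dbp, Tef and Nfil3 had their lowest level in LCC, Arntl and Cry2 in E-Int29-Hi, and Per1 in MG. Tef (11.06 FPKM in LCC, 11.12 FPKM in MG) and Nfil3 (30.3 and 33.3 FPKM) were lowest in LCC by little. The share of all genes that were lowest or highest in LCC was not computed, so these counts have no background beside them. Per1, Per2, Per3, Tef and Nfil3 were highest in E-Int29-Hi, and the other 5 in MG. Nfil3 and Per1 were the most abundant members in each library. The lowest member was Per3 in LCC and MG and Arntl in E-Int29-Hi.

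**Figure D2:**
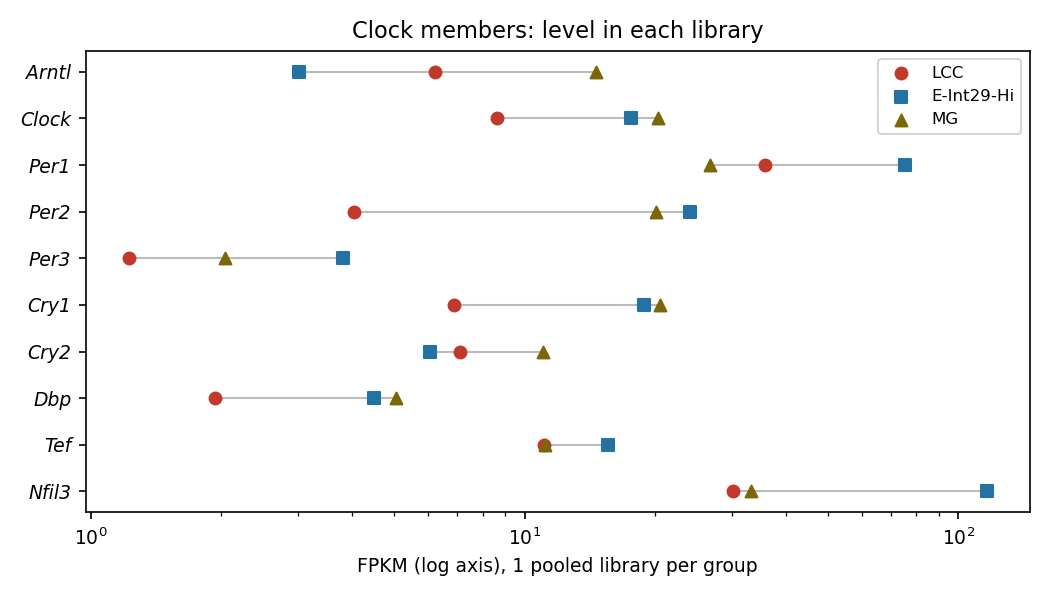
Level of each clock member in FPKM (x axis, log scale), with 1 point per pooled library and a grey line from the lowest to the highest. Per2 stands apart in LCC, Nfil3 and Per1 in E-Int29-Hi, and Arntl is spread from 3.01 to 14.6 FPKM.

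Arntl encodes the activator without which the loop stops. It stood at 6.21 FPKM in LCC, 3.01 FPKM in E-Int29-Hi and 14.6 FPKM in MG. MG was high and E-Int29-Hi low, with LCC between them. The log2 difference was -1.96 for E-Int29-Hi against MG (-1.73 relative to the median gene), and 4.18% of all counted genes lay below it. With a pseudocount of 0.1 this difference was -2.24, past 4-fold, and with a pseudocount of 5 it was -1.29. LCC against MG gave -1.11, and LCC against E-Int29-Hi gave 0.85.

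Clock, which encodes the partner of ARNTL, followed Arntl between LCC and MG but not in E-Int29-Hi. It stood at 8.63 FPKM in LCC, 17.6 FPKM in E-Int29-Hi and 20.3 FPKM in MG. LCC alone was low, and the 2 other libraries were close, at a log2 difference of -0.20 whose sign turned to 0.12 with scaling by median ratios. The difference for LCC was -1.15 against MG and -0.95 against E-Int29-Hi. Npas2, a paralog that can replace Clock, had 0.311 FPKM in LCC, 0.0613 FPKM in E-Int29-Hi and 3.37 FPKM in MG. Arntl2, a paralog of Arntl, stood under 1 FPKM in all 3.

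Among the Per genes, whose proteins form the repressor complex, Per2 gave the largest differences of any member in both comparisons of LCC. It stood at 4.04 FPKM in LCC, 24.1 FPKM in E-Int29-Hi and 20.1 FPKM in MG. LCC was low and the other libraries were alike, with a log2 difference of 0.25 between them. The log2 difference of LCC was -2.31 against E-Int29-Hi (-2.57 relative to the median gene) and -2.07 against MG. Of all counted genes, 3.1% and 2.36% lay below these values. With a pseudocount of 5 both were under 4-fold, at -1.68 and -1.47.

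Per1 had another pattern than Per2. It stood at 35.8 FPKM in LCC, 75.2 FPKM in E-Int29-Hi and 26.8 FPKM in MG, so E-Int29-Hi was high and LCC and MG were near each other. The log2 difference of E-Int29-Hi was 1.45 against MG (1.68 relative to the median gene). LCC stood 0.40 above MG and 1.05 below E-Int29-Hi on the log2 scale, the latter 0.97 below with a pseudocount of 5 and then under 2-fold. Of the summed Per FPKM, Per1 made up 87.2% for LCC, 72.9% for E-Int29-Hi and 54.7% for MG, and Per2 made up 9.84%, 23.4% and 41.1%. Per3, the third gene of the family, was low throughout, at 1.22, 3.81 and 2.04 FPKM. Its log2 difference of -1.11 for LCC against E-Int29-Hi was -0.50 with a pseudocount of 5, so this call rests on low values.

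The Cry genes encode the cryptochromes, the strongest repressors of the loop. Cry1 stood at 6.87 FPKM in LCC, 18.8 FPKM in E-Int29-Hi and 20.5 FPKM in MG. LCC was low and the other libraries were close. The log2 difference of LCC was -1.33 against E-Int29-Hi and -1.45 against MG. Cry2 stood at 7.08, 6.06 and 11.0 FPKM, with MG the highest and LCC and E-Int29-Hi near each other. Its difference of 0.19 for LCC against E-Int29-Hi turned to -0.06 with scaling by median ratios. Cry1 and Cry2 were thus at nearly the same level in LCC (a ratio of 0.97), whereas Cry1 was 3.10 times Cry2 in E-Int29-Hi and 1.86 times in MG.

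Dbp and Tef encode activators of D-box genes and Nfil3 encodes their repressor. Dbp, an output gene with a strong daily rhythm in many tissues, was low throughout. It stood at 1.94 FPKM in LCC, 4.50 FPKM in E-Int29-Hi and 5.06 FPKM in MG, with LCC the lowest. The log2 difference of LCC against MG was -1.05, and -0.99 with scaling by median ratios, which is just under 2-fold. In GENCODE M21, 18% of the exon bases of Dbp are shared with Sphk2 on the opposite strand. The sources used here do not say whether counting used strand, and Sphk2 stood at 8.58, 3.57 and 8.33 FPKM, so some fragments could belong to either gene.

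Tef was the flattest member, at 11.1 FPKM in LCC, 15.6 FPKM in E-Int29-Hi and 11.1 FPKM in MG. LCC and MG were level, with a log2 difference of -0.01 that turned to 0.04 with scaling by median ratios. Hlf, the other activator of this family, stood at 3.18, 6.63 and 2.51 FPKM. E-Int29-Hi was the high library for both.

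Nfil3 reached the highest level of any member. It stood at 30.3 FPKM in LCC, 116 FPKM in E-Int29-Hi and 33.3 FPKM in MG, so E-Int29-Hi was far above the others, which were close. In E-Int29-Hi, 98% of all 22077 gene names stood below it. The log2 difference of E-Int29-Hi against MG was 1.77 (2.0003 relative to the median gene), and 96.6% of counted genes lay below it. LCC against E-Int29-Hi gave -1.91, and LCC against MG -0.13. Scaling by median ratios put the 2 larger differences past 4-fold, at 2.10 and -2.19. In the same order, TPM gave 1.62 and -2.05, and a pseudocount of 5 gave 1.66 and -1.78.

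Counted over the members, 5 of 10 were at least 2-fold lower in LCC than in E-Int29-Hi, and 0 were higher. They were Per1, Per2, Per3, Cry1 and Nfil3. Over all 12147 counted genes, 14.1% were at least 2-fold lower and 21.2% higher. The median of the members was -0.9999. At 4-fold, 1 member (Per2) was lower and 0 higher, beside 4.35% and 4.64% of all genes. With scaling by median ratios Nfil3 joined it.

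Against MG, 5 of 10 members were at least 2-fold lower in LCC and 0 were higher, beside 12.8% and 10.9% of all 12443 genes. They were Arntl, Clock, Per2, Cry1 and Dbp, and the median of the members was -0.81. At 4-fold, 1 member (Per2) was lower and 0 higher, beside 2.63% and 1.33% of all genes. Both comparisons share the LCC library, so Per2 and Cry1, which were lower in each, were not measured independently. With a pseudocount of 5 only Per2, Cry1 and Nfil3 remained at 2-fold against E-Int29-Hi, and only Per2 and Cry1 against MG. The share of all genes with that pseudocount was not computed.

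In E-Int29-Hi against MG, 2 of 10 members, Per1 and Nfil3, were at least 2-fold higher, and 1, Arntl, was lower. Over all 12430 genes, 8.99% were at least 2-fold higher and 15.5% lower. No member was 4-fold apart, beside 2.6% of all genes higher and 3.97% lower. The median of the members was 0.07 and changed sign with TPM scaling (-0.10). The differences of Clock (-0.20), Cry1 (-0.11) and Dbp (-0.14) also changed sign between scalings. These signs are against 0, and the median of all genes moved with the scaling as well. It was -0.23 beside the members' 0.07, and 0.06 beside 0.39 with scaling by median ratios. The members' median was thus above that of all genes under both, and with TPM the median of all genes was not computed. Relative to the median gene, Clock stood at 0.03, Cry1 at 0.11 and Dbp at 0.09. The direction of the members as a group against 0 was therefore not settled in this comparison.

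**Figure D3:**
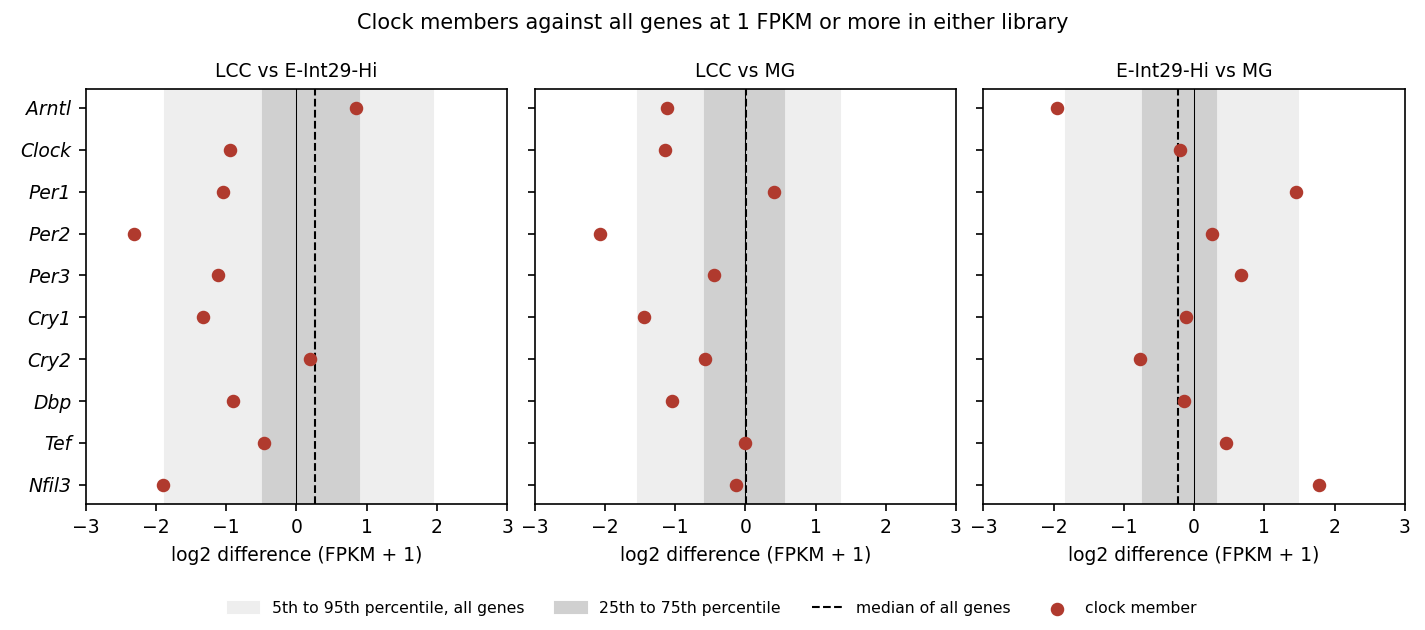
Log2 difference of FPKM + 1 for each clock member (points) in the 3 comparisons, over the spread of all counted genes (light band, 5th to 95th percentile; dark band, 25th to 75th; dashed line, median). Per2 lies left of the light band in both comparisons of LCC, and Nfil3 lies at its left edge against E-Int29-Hi. In E-Int29-Hi against MG, Arntl lies left of it and Nfil3 right of it.

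Ratios between members within a library do not depend on how the libraries were scaled. Per2 was 0.651 times Arntl in LCC, 8.00 times in E-Int29-Hi and 1.38 times in MG. Per1 over Arntl was 5.77, 24.97 and 1.84 in the same order. These repressor-to-activator ratios were highest in E-Int29-Hi, where Arntl was lowest. LCC and MG took opposite orders for the 2 repressors, with the lower Per2 ratio and the higher Per1 ratio in LCC. Per1 over Per2 was 8.86 for LCC, 3.12 for E-Int29-Hi and 1.33 for MG. Clock over Arntl was 1.39 in both LCC and MG and 5.85 in E-Int29-Hi. Dbp over Arntl was 0.312, 1.49 and 0.347, highest in E-Int29-Hi. The ratios over Arntl share that divisor, which was lowest in E-Int29-Hi, so they do not repeat one another independently. Clock and Dbp themselves were highest in MG. Nfil3 over the sum of Dbp and Tef, the D-box repressor against the activators, was 2.33, 5.79 and 2.06, and Nfil3 was above that sum in every library.

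**Figure D4:**
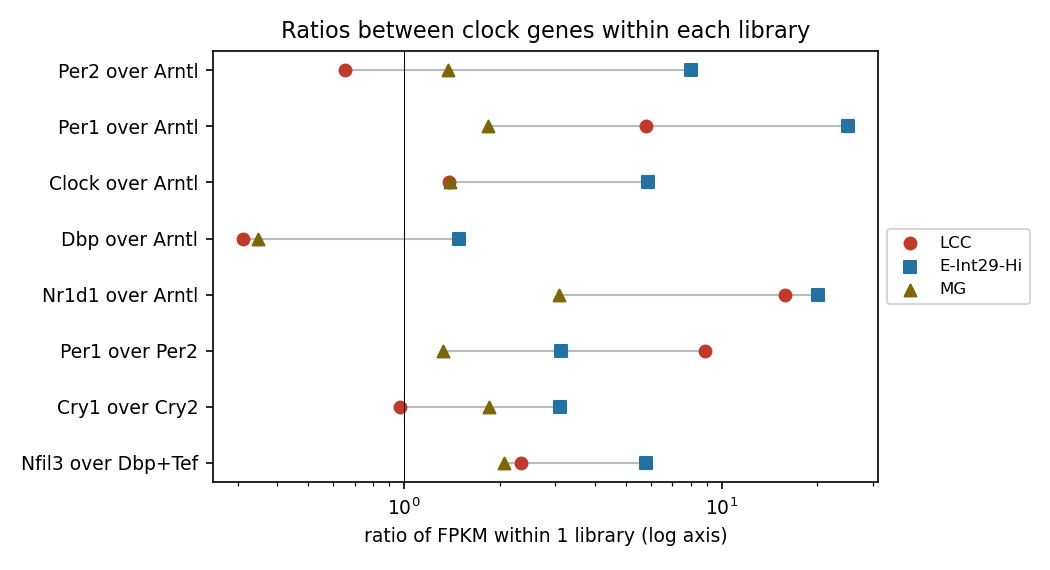
Ratio of FPKM between clock genes within each library (x axis, log scale), with 1 point per library and a thin line at a ratio of 1. E-Int29-Hi is the highest of the 3 in every ratio shown except Per1 over Per2, where LCC is the highest at 8.86. The ratios over Arntl share that divisor, which was lowest in E-Int29-Hi.

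The members fell into patterns that did not follow their roles. Likeness was measured as the distance between log2(FPKM + 1) values centred on each gene's mean over the 3 libraries, a description over 3 points. Clock and Dbp were the closest pair (0.0725), with Cry1 next to Clock (0.285), and all 3 were low in LCC. Per2 lay nearest to Cry1 (0.701). Per1 and Nfil3 were nearest to each other (0.612), and both were high in E-Int29-Hi. Arntl was the farthest gene from 8 of the 9 others, with its largest distance to Nfil3 (2.74). Tef had the smallest distance from a flat pattern (0.373). The E-box genes Per1, Cry1 and Tef shown above thus differed, with the high or low library being E-Int29-Hi for Per1 and Tef and LCC for Cry1.

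The nuclear receptors of the second loop act on ROR elements, of which a match is shown for Arntl. Nr1d1, which encodes the repressor REV-ERB alpha, stood at 98.2 FPKM in LCC, 60.3 FPKM in E-Int29-Hi and 44.9 FPKM in MG. LCC was high and MG low, with a log2 difference of 1.11 that was 0.83 with TPM scaling. Of its exon bases, 8.55% are shared with Thra on the opposite strand, and Thra stood at 7.85, 13.0 and 18.9 FPKM, the reverse order. Nr1d2, its paralog, stood at 25.6, 23.2 and 35.6 FPKM. Of the activators of the same elements, Rora stood at 7.42, 6.41 and 10.5 FPKM, and Rorb under 1 FPKM in all 3. Nr1d1 over Arntl was 15.8 for LCC, 20.04 for E-Int29-Hi and 3.07 for MG, a ratio in which Arntl is the divisor.

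Bhlhe40, which encodes a repressor that competes for E-boxes, stood at 264 FPKM in LCC, 194 FPKM in E-Int29-Hi and 138 FPKM in MG. Its paralog Bhlhe41 stood at 51.3, 122 and 28.3 FPKM, with E-Int29-Hi high as for Nfil3 and Per1. Of its exon bases, 19% are shared with Gm43909 on the opposite strand. The log2 difference of Bhlhe41 between E-Int29-Hi and MG was 2.07. Ciart (listed as Gm129), a repressor of the ARNTL and CLOCK pair, stood at 4.98, 1.79 and 4.11 FPKM, with E-Int29-Hi low.

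The 5 lists of other clock genes held 35 genes in all. Against E-Int29-Hi, 31 of 35 reached 1 FPKM in the higher library, 5 were at least 2-fold lower in LCC and 1, Ciart, was higher (log2 difference 1.10, and 0.90 with scaling by median ratios), with a median of 0.15, beside 14.1% lower and 21.2% higher over all genes. Bhlhe41, Sfpq, Usp2 and Tspan4 were among the 5. Against MG, 6 of 32 counted genes were at least 2-fold lower in LCC (Npas2, Timeless, Sfpq, Sirt1, Usp2 and Klf9) and 1, Nr1d1, was higher, with a median of -0.004, beside 12.8% and 10.9% of all genes. In E-Int29-Hi against MG, 3 of 32 were higher (Hlf, Bhlhe41 and Tspan4) and 5 lower (Npas2, Prkaa1, Timeless and Sirt1 among them), with a median of -0.19, beside 8.99% higher and 15.5% lower over all genes. The counts of lower genes were thus near the share of all genes in each comparison with E-Int29-Hi. The signs of these medians turned with scaling by median ratios, to -0.13, 0.04 and 0.12. The median of all genes moved as well, from 0.26, 0.01 and -0.23 to 0.02, 0.05 and 0.06. Under both scalings the other clock genes lay below it in the comparisons of LCC and above it in E-Int29-Hi against MG.

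Among the output genes, Usp2, a ubiquitin protease with a daily rhythm in many tissues, followed Per2 and Dbp. It stood at 1.34 FPKM in LCC, 5.13 FPKM in E-Int29-Hi and 5.73 FPKM in MG, and its log2 difference for LCC was -1.39 and -1.53. Tspan4, a tetraspanin, stood at 45.8, 172 and 37.3 FPKM, the pattern of Nfil3, with 13.4% of its exon bases shared with Chid1 on the opposite strand. Klf9, a transcription factor also induced by glucocorticoids, stood at 17.5, 22.0 and 40.6 FPKM. Noct (listed as Ccrn4l), a phosphatase of NADPH, was level at 72.1, 79.5 and 70.8 FPKM. Wee1, a kinase that restrains mitosis, stood at 6.79, 14.2 and 10.4 FPKM.

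Of the 9 kinases and ubiquitin ligases that set the stability of PER and CRY, 8 were counted in each comparison. In LCC, 0 of the 8 were 2-fold apart from E-Int29-Hi (all genes: 14.1% lower, 21.2% higher) or MG (12.8% lower, 10.9% higher). In E-Int29-Hi against MG, 2 of the 8, Prkaa1 among them, were at least 2-fold lower and 0 higher, beside 15.5% and 8.99% of all genes. Csnk1d, a casein kinase that phosphorylates PER, stood at 85.1 FPKM in LCC, 122 FPKM in E-Int29-Hi and 73.7 FPKM in MG. Csnk1e, its paralog, stood at 50.3, 48.3 and 43.5 FPKM. Prkaa1, a subunit of the energy-sensing kinase AMPK, stood at 7.63, 4.27 and 12.5 FPKM. Of the cofactors, Nono, an RNA-binding partner of the PER proteins, stood at 85.3, 51.5 and 60.8 FPKM. Sfpq, which joins the PER complex, stood at 38.4, 97.1 and 116 FPKM, low in LCC as Per2 and Cry1 were. Timeless, which also acts at replication forks, stood at 1.64, 0.842 and 5.20 FPKM. Sirt1, a deacetylase, stood at 11.8, 8.39 and 25.8 FPKM, and like Timeless and Arntl it was lowest in E-Int29-Hi and highest in MG.

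**Figure D5:**
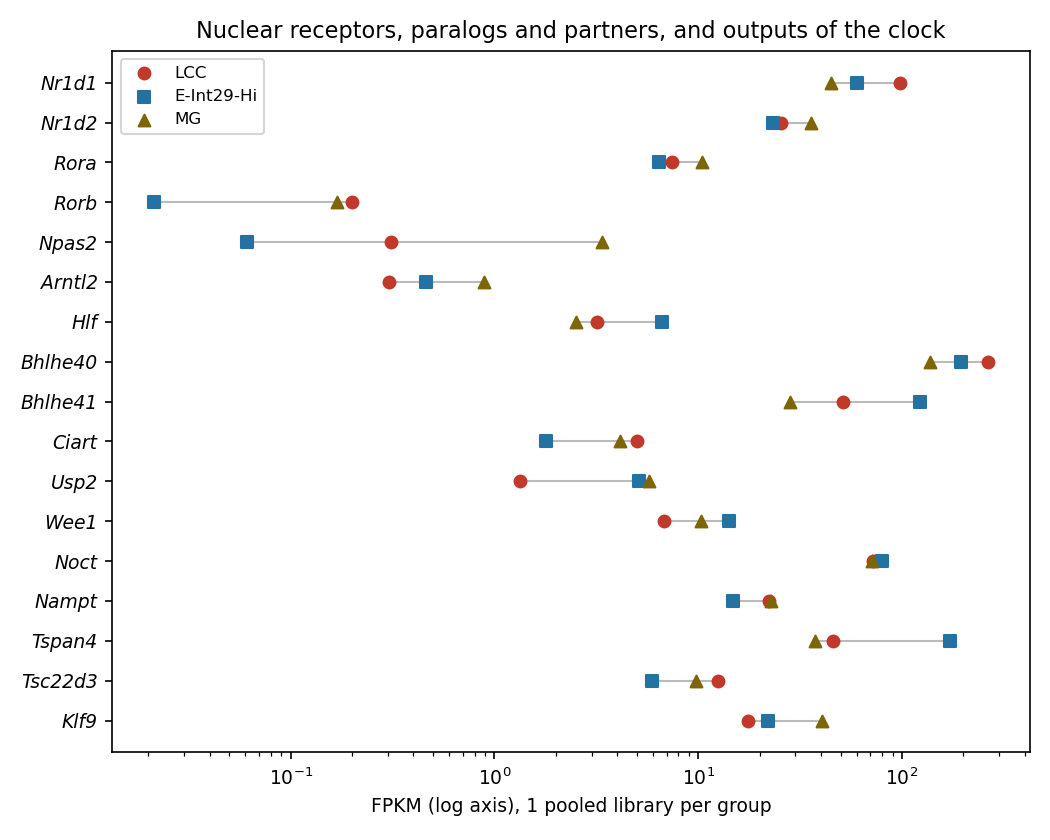
Level in FPKM (x axis, log scale) of clock nuclear receptors, the paralogs and partners of the members, and the clock output genes, with 1 point per pooled library. Usp2 is lowest in LCC at 1.34, Bhlhe41 and Tspan4 are highest in E-Int29-Hi, and Npas2 is far higher in MG than in the other libraries.

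Per1 and Nfil3 are also known as genes induced within hours by stress, cyclic AMP or glucocorticoids, so genes of those responses were read beside them. Of 8 immediate early genes, all were lower in LCC than in E-Int29-Hi (median -0.94, beside 0.26 over all genes). At least 2-fold lower were 3 of them, beside 14.1% of all genes. All 8 were also lower in LCC than in MG (median -1.09, beside 0.01 over all genes). At least 2-fold lower were 5 of them, beside 12.8% of all genes. Both comparisons share the LCC library. The share of all genes higher or lower by any amount was not computed for any comparison. Fos stood at 94.7 FPKM in LCC, 369 FPKM in E-Int29-Hi and 604 FPKM in MG. Between E-Int29-Hi and MG, 4 of the 8 were higher and 4 lower. Their median was -0.04, and 0.30 with scaling by median ratios, beside -0.23 and 0.06 over all genes. Of the 8 genes, 1, Fosb, was at least 2-fold lower in E-Int29-Hi (-1.39) and 0 were that much higher, beside 15.5% and 8.99% of all genes. Nr4a1 was the farthest up, at 0.93. Of 7 glucocorticoid-responsive genes, 2 passed 2-fold in E-Int29-Hi over MG, the metallothioneins Mt1 (4624 against 560.0 FPKM) and Mt2, and 1, Fkbp5, was lower (4.57 against 10.6 FPKM), beside 8.99% higher and 15.5% lower over all genes. In LCC against E-Int29-Hi, 3 of the 7 were at least 2-fold lower (Mt1, Mt2 and Zbtb16) and 1, Fkbp5, was higher (12.5 against 4.57 FPKM), beside 14.1% and 21.2%. In LCC against MG, 1 of the 7, Klf9, was lower and 0 were higher, beside 12.8% and 10.9%. Of the exon bases of Mt2, 73.5% are shared with Gm45774 on the opposite strand. The genes of this list, which holds Klf9 and Tsc22d3 as the output list does, thus differed among themselves. The part of either response in the clock gene differences was not tested.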

How the data were processed

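Poly(A) libraries were prepared with an Illumina TruSeq kit, per the labels' protocols. For each library the authors deposited FPKM per gene with a status, per the file headers. The submitters' processing notes name TopHat 1.4.1, Cufflinks 1.3.0 and mm9 but not what each was used for, and no annotation release is given there. The genome reference here was GRCm38, so it was used only for promoter sequences and for which genes overlap.

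Gene models were kept where the status was OK in each of the 3 libraries (22188 of 22378), and a name on several gene models (105 names) was represented by the model with the highest summed FPKM, which left 22077 names. Differences used a pseudocount of 1 and genes reaching 1 FPKM in the higher library. All members and every gene that is 2-fold apart in the other clock lists are named, with every nuclear receptor, paralog and partner, except for items not reported here. The members and lists were chosen with earlier results of these data known. No protein sequences were compared, although this had been planned. Read totals are unknown. Among genes between 0.005 and 0.1 FPKM in both libraries, LCC over E-Int29-Hi was most often 1.12 (14 of 353 genes), LCC over MG was most often 1.17 (17 of 292) and E-Int29-Hi over MG was most often 1.05 (119 of 1074). This hints at relative depth only. The alternatives were other pseudocounts and filters, scaling by median ratios or to equal sums (TPM), summed models and genes of every status. Before the TPM scaling, mitochondrially encoded genes, small RNAs and predicted or clone-named genes other than Gm129 were left out. The steps were tested on simulated data. Python 3.11.15, numpy 2.4.6, pandas 2.3.3 and matplotlib 3.10.9 were used.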

Additional observations from a re-analysis of the deposited data

How the results depend on the processing

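No paired analysis was possible because each group had 1 pooled library, and for the same reason no library could be left out. Of 144 counts recomputed under 8 alternatives, 123 stayed within 1.5 times the main count and 21 did not. Shares over all genes were computed with the main settings only, so none stands beside the counts given below. Of 48 medians, 43 kept their sign and 5 did not. Of 236 single member differences, 232 moved by less than 1.5-fold, and the 4 others (Per2 in both comparisons of LCC, Per3 and Arntl) did so only with a pseudocount of 5. No member called at 2-fold changed its direction.

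For the members in LCC against E-Int29-Hi, the count at least 2-fold higher was 1 (Arntl) with a pseudocount of 0.1. The count at least 2-fold lower was 3 with a pseudocount of 5, and the count at least 4-fold lower was 0 with that pseudocount and 2 with scaling by median ratios or TPM. In LCC against MG, a pseudocount of 5 left 2 members past 2-fold lower and 0 past 4-fold lower. In E-Int29-Hi against MG, 2 passed 2-fold lower with TPM, 1 passed 4-fold lower with TPM or a pseudocount of 0.1, and 1 passed 4-fold higher with scaling by median ratios. The median there was -0.11 with a filter at 5 FPKM and -0.10 with TPM.

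For the other clock genes in LCC against E-Int29-Hi, the count at least 2-fold higher was 3 with a pseudocount of 0.1, and 0 with a pseudocount of 5, a filter at 5 FPKM or median ratios. The count lower was 3 with a pseudocount of 5 and 8 with TPM, and the median was -0.13 with median ratios. In LCC against MG, 0 were higher with TPM, 2 were lower with a pseudocount of 5, and the median was 0.044 with median ratios. In E-Int29-Hi against MG, 2 were lower with a pseudocount of 5 and 8 with TPM, and the median was 0.12 with median ratios. A larger pseudocount shrinks the change of low genes, and TPM values are larger than FPKM here, so low genes pass more easily. Low members (Per3 and Dbp) are limited most by depth, which is unknown.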
